A study of Mus musculus with 16 samples.

Results

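Ribosomal protein genes encode the protein parts of the cytosolic ribosome. They were taken here as every gene of the deposited table whose symbol starts with Rpl or Rps and a digit, or with Rplp, together with Rpsa. Symbols that end in -ps and a number, which name pseudogenes, and the Rps6k kinases were left out. In all, 84 of 9223 genes met the rule, 50 with a large subunit symbol (Rpl) and 34 with a small subunit symbol (Rps). Of the 84 genes, 77 encode a standard protein of the cytosolic ribosome. The other 7, Rpl22l1, Rpl7l1, Rpl36al, Rps27l, Rps27rt, Rpl6l and Rps19bp1, are paralogs, copies or genes that share only the start of the symbol, and results that turn on them are given by name.

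The small ribosomal subunit reads the messenger RNA and the large subunit joins the amino acids. Most ribosomal proteins are needed in equal amounts, and their messengers are abundant and start with a cytosine and a run of pyrimidines, the terminal oligopyrimidine (TOP) motif, through which mTOR signalling sets how well they are translated. T cells build more ribosomes when they are activated and before they divide.

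The cells were Pmel T cells, CD8+Thy1.1+ T cells whose transgenic receptor recognises gp100, a melanoma antigen, and were profiled by single-cell RNA sequencing. All came from C57BL/6 mice of 16 weeks with melanoma-associated vitiligo, in which immune attack removes pigment cells, taken 45 days after their tumor surgery. The groups differ only in the tissue named in the labels, which is skin, lung, liver or lymph node (LN, the draining node), and the labels give no untreated or tumor-free control. Per the labels' protocols the node was dissociated by mechanical means, skin and liver were digested with collagenase and lung with Liberase, and a Percoll gradient was used for lung and liver only. Each tissue thus had its own preparation, lung and liver sharing the gradient but not the enzyme, and preparation cannot be told apart from tissue.

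Each tissue has 4 samples whose titles differ only in an ending of the kind used for flow cell lanes, and the table names cells by tissue, so each tissue counts as 1 library. No difference between tissues was tested and no value has a replicate. Intervals are exact 95% intervals that cover counting error only. The table held 1224 skin, 2322 lung, 556 liver and 1625 lymph node cells, with 3292210, 8072278, 1928185 and 4532333 counts and medians of 2517.5 to 3095.5 counts per cell. The names of the skin and lymph node cells carry a 2 after the tissue, those of lung and liver do not, and no source used here says what it marks. Among the cells, 19 barcodes occurred in more than 1 tissue (38 cells). The 9 T cell markers, among them Cd3e, Cd8a and Thy1, summed to 9668 to 12190 CPM (counts scaled to 1000000 per tissue). Markers of other cells were low: 4 detected myeloid genes summed to 238 to 289 CPM, 5 B cell genes to at most 39.7, 2 keratinocyte genes to 12.8 to 35.5 and 1 hepatocyte gene to at most 1.36, and no listed dendritic, erythroid or melanocyte gene was in the table.

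The coding sequences of the S27 family are shown first, because its genes lay at opposite ends of the 84 in cycling cells and because Rps27 and Rps27rt are near-identical copies counted apart. Rps27 lies on chromosome 3 (chr3:90212522-90213651, minus strand, 4 exons) and encodes a zinc-binding protein of the small subunit. Rps27rt is a single-exon gene at chr9:114982366-114982739 (minus strand), and Rps27l is a paralog with 4 exons at chr9:66946086-66949516 (plus strand), known as a gene that p53 switches on. Positions and coding sequences come from GENCODE M21 (assembly GRCm38, or mm10). The coding sequence of Rps27rt has 255 bases, all 255 identical to those of Rps27, so that reads from the coding part of these genes cannot be assigned to one of them. That of Rps27l also has 255 bases, of which 194 are identical (76.1%) and 61 differ. Capitals in the second sequence mark the bases that differ from Rps27.
Rps27 and Rps27rt: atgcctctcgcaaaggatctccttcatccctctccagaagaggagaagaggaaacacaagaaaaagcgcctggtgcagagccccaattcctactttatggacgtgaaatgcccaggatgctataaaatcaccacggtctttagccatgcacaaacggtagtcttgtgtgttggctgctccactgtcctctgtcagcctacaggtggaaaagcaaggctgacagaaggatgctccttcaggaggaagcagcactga
Rps27l: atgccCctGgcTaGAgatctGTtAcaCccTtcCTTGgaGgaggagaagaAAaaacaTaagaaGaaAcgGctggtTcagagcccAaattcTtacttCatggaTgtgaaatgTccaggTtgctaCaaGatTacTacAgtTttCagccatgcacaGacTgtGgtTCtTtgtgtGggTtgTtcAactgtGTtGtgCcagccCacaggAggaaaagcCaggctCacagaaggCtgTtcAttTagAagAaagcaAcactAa

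The mismatches are spread along the whole sequence of Rps27l, so most of its reads could be told from those of Rps27, whereas the identity of Rps27rt with Rps27 makes their separate counts uncertain.

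The starts of the messengers are shown next, because they hold the sequence feature that ribosomal protein genes are known to share. Each line gives the 15 bases before and the 15 bases from the annotated RefSeq start (GRCm38.p6), with the pyrimidine run that begins at the start in capitals.
Rps27 (chr3:90213634-90213663, minus strand): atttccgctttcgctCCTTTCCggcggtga
Rps27rt (chr9:114982725-114982754, minus strand): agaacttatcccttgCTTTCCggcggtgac
Rpl35 (chr2:39005117-39005146, minus strand): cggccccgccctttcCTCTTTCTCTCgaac
Rpl15 (chr14:18270972-18271001, minus strand): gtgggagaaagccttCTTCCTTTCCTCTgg
Rps6 (chr4:86857353-86857382, minus strand): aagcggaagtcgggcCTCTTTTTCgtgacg
Rplp2 (chr7:141447636-141447665, plus strand): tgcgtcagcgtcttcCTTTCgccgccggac

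RefSeq start windows matched 63 of the 84 genes. A C at the annotated start followed by pyrimidines, with a run of at least 5 in all on the strand of the transcript, was present in 14 of the 63 (22.2%), against 3.10% of the 7108 genes of the table that have a window. When such a run could begin anywhere within 10 bases of the start, it was found in 58.7% of the ribosomal protein genes and in 37.4% of the genes of the table. All starts shown are among the 14 with the run at the annotated start, so they do not stand for the rest of the 63. The genes shown include members that were high and members that were low in the same tissues, and a match is a description of these letters only.

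The summed level of the 84 genes was lowest in skin. Their sum was 183386 CPM in skin cells, 246521 in lung, 248203 in liver and 239176 in the lymph node, that is 18.3% (interval 18.3 to 18.4), 24.7%, 24.8% and 23.9% of all counts. The sum in skin was 0.767 times that in lymph node (0.764 to 0.769), 0.744 times that in lung and 0.739 times that in liver. Lung, liver and lymph node lay close together: lung was 0.993 times liver and 1.03 times lymph node. CPM is a share of all counts, so a lower share cannot be told apart from a higher level of other messengers.

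Single cells gave the same order of tissues. The median share of a cell's counts from these genes was 18.9% in skin (10th to 90th percentile 13.8 to 23.5), 24.1% in lung (19.5 to 29.7), 24.6% in liver (20.1 to 29.3) and 23.2% in lymph node (18.3 to 29.1). Of the skin cells, 57.8% lay below the 10th percentile of lung, 63.6% below that of liver and 44.2% below that of lymph node. The distributions therefore overlapped, with skin displaced downward as a whole. A median of 2517.5 counts per cell in skin and of 2943 in lung set these shares side by side at unequal depth, and the shares of counts do not depend on a detection threshold.

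**Figure D1:**
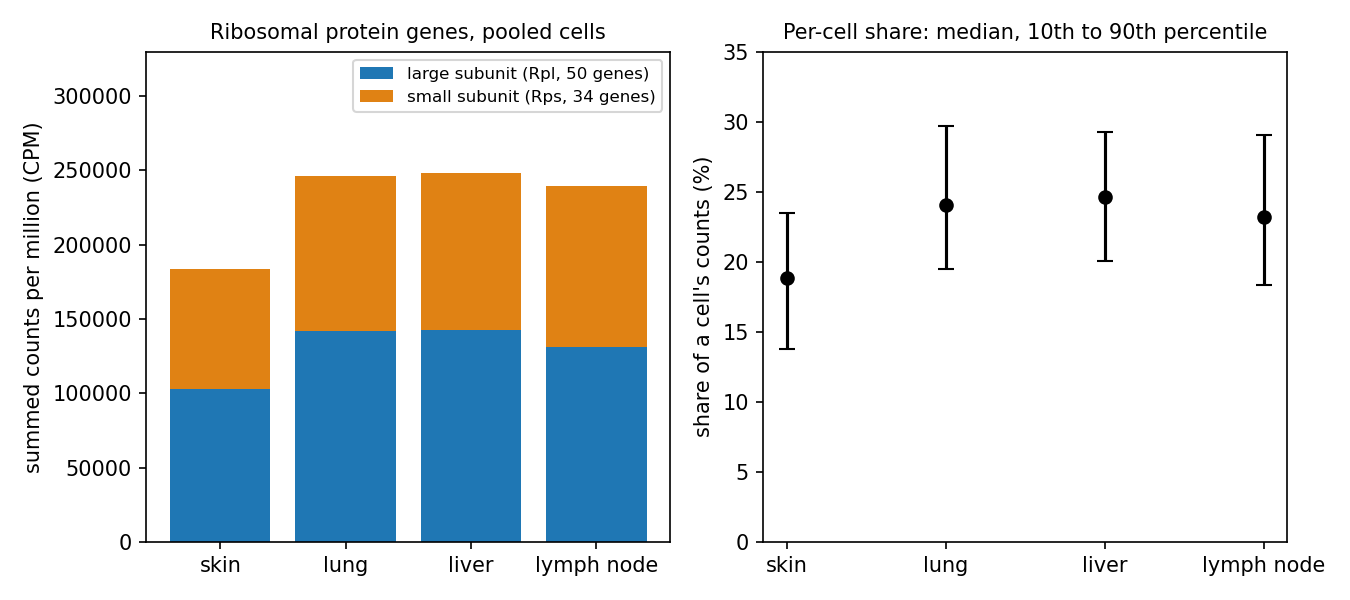
Left, summed CPM of the large subunit genes (lower part of each bar) and small subunit genes (upper part) in the pooled cells of each tissue. Right, the share of a cell's counts from the 84 genes, with the median as a point and the 10th to 90th percentile of cells as the bar. Skin is lowest in both panels, at 183386 CPM and a median of 18.9%.

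The subunits were shifted unequally. Large subunit genes summed to 102787 CPM in skin cells, 141860 in lung, 142376 in liver and 131160 in the lymph node, and small subunit genes to 80598, 104661, 105828 and 108015. The ratio of large to small was 1.28 in skin (1.27 to 1.28), 1.36 in lung (1.35 to 1.36), 1.35 in liver (1.34 to 1.35) and 1.21 in lymph node (1.21 to 1.22). Lung and liver thus had the higher ratio and lymph node the lowest. The order did not hold without 7 genes described below that were higher in both skin and lymph node (3 large, 4 small): the ratio was then 1.60 in skin, 1.54 in lymph node, 1.53 in liver and 1.51 in lung. These 7 were chosen by their levels in the same tissues, so this shift follows in part from the choice and does not test the ratio.

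Gene by gene, skin had the lowest level of the 4 tissues for 75 of the 84 genes (45 large, 30 small), against 25.0% of the 9078 genes with enough counts to compare. Liver was highest for 37 (10.3% of all genes), lung for 29 (11.9%), lymph node for 16 (49.7% of all genes) and skin for 2 (28.0%), Rpl35 and Rpl6l. All 84 passed the minimum of 20 summed counts in each of the 6 pairs of tissues. Across the 84 genes the levels of lung and liver were nearly the same (SD of the log2 ratio 0.13), those of skin and lymph node were close (0.20), and skin and lung were farthest apart among these 3 pairs (0.54). The tissues of each close pair also share the form of their cell names.

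Between skin and lymph node, 82 of the 84 genes were lower in skin, where 64.1% of all 8961 genes compared were. The median log2 ratio was -0.39, against -0.20 over all genes. At least 1.5-fold lower in skin were 11 members, against 23.8% of all genes, and no member was 1.5-fold higher, against 10.3%. The displacement of skin from lymph node was thus broad and small.

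Against lung, 76 members were lower in skin and 8 higher, where 38.1% of all genes lay lower. At least 1.5-fold lower were 39, against 14.0% of all genes, and 6 were at least 1.5-fold higher, against 30.1%. The median log2 ratio of the members was -0.56 and that of all genes 0.21, with opposite signs. Against liver the counts were alike: 76 lower and 8 higher, 38 at least 1.5-fold lower (11.4% of all genes) and 5 at least 1.5-fold higher (31.0%), with a median of -0.54 against 0.25. Of all genes 35.1% were lower in skin than in liver.

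Lung and liver against lymph node went the other way. In lung 63 genes were higher than in lymph node and 21 lower, where 24.6% of all genes were higher, and the median log2 ratio was 0.13 against -0.41 over all genes. At least 1.5-fold higher in lung were 7, against 6.59% of all genes, and lower were 8, against 38.7%. In liver 58 were higher and 26 lower (24.1% of all genes were higher), with a median of 0.16 against -0.45, and 5 were at least 1.5-fold higher (7.58%) and 8 lower (41.2%). Size factors taken from median ratios over genes, in place of total counts, moved every ratio to lymph node up by 0.15 (skin), 0.27 (lung) and 0.29 (liver) on the log2 scale and the ratios of skin to lung and to liver down by 0.12 and 0.14. With them 22 members were at least 1.5-fold higher (11.9% of all genes) and 6 lower (24.3%) in lung than in lymph node, and 24 (13.4%) and 6 (26.9%) in liver. Between lung and liver no member differed by 1.5-fold, where 17.5% of all genes did, and the median was -0.01.

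The counts past a threshold depend on where it is set. Past 5/4-fold in either direction lay 57 members for skin against lymph node (57.8% of all genes), 32 for lung (67.2%) and 30 for liver (70.5%), 67 for skin against liver (65.1%) and 3 for lung against liver (39.2%). Past 2-fold lay 1 for skin against lymph node (15.9% of all genes), 4 for lung (21.9%) and 4 for liver (26.0%), 8 for skin against lung (22.1%) and 12 for skin against liver (21.5%). At 2-fold every share of members was below that of all genes.

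**Figure D2:**
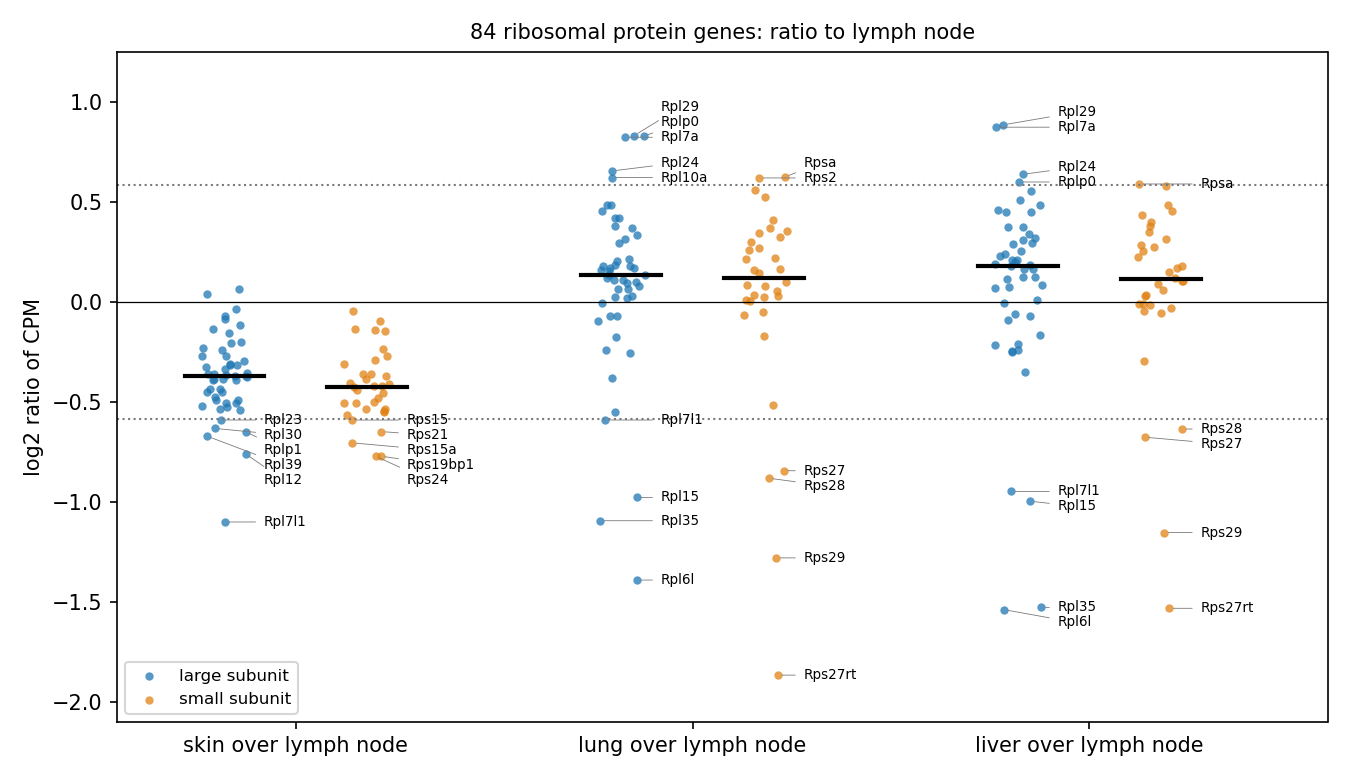
Log2 ratio of CPM of each of the 84 genes in skin, lung and liver over lymph node, with large subunit genes to the left and small subunit genes to the right in each comparison. Thick lines are medians, dotted lines mark 1.5-fold, and genes past it are named. In skin nearly all genes lie below 0, and in lung and liver most lie above 0 with a tail that reaches -1.87 (Rps27rt in lung).

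The genes with most counts showed both the family's order and its exceptions. Counts were not divided by gene length, so levels are compared between tissues and not between genes. Rpl13a, a large subunit protein also known to silence inflammatory messengers, had 5591 CPM in skin cells, 8445 in lung, 9086 in liver and 7337 in the lymph node. Rpl32 had 3089, 5653, 5284 and 4231. In both genes skin was clearly lowest. Rps14, a core protein of the small subunit, had 4506, 6157, 6162 and 6029 CPM, and Rps23, at the decoding centre, had 4057, 5510.0, 5608 and 5380.0. Skin was lowest again, and the other 3 tissues differed little. Rpl41, the shortest ribosomal protein, had 5901, 6599, 6468 and 6496 CPM, Rpl13 had 4208, 4833, 4266 and 5083, and Rpl37a had 4973, 5300.2, 5823 and 6909. For Rpl41 and Rpl13 the tissues lay closer together, and Rpl37a was highest in lymph node.

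Of the large subunit genes that were low in skin, Rpl12 and Rpl39 are described first. Rpl12, at the base of the stalk, had 607 CPM in skin cells, 1088 in lung, 1167 in liver and 1029 in the lymph node. Rpl39, which lines the exit tunnel of the new chain, had 1295, 2345, 2609 and 2064 CPM in the same order. In both genes skin stood alone below the other 3 tissues. Skin was 1.69-fold (1.61 to 1.79) below lymph node for Rpl12 and 1.59-fold (1.54 to 1.65) for Rpl39.

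Rpl10a, at the side of the large subunit where spent tRNA leaves, had 865, 1933, 1844 and 1258 CPM, 2.23-fold (2.15 to 2.33) higher in lung than in skin.

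The stalk proteins Rplp0, Rplp1 and Rplp2, which recruit elongation factors, did not move together. Rplp0, the base of the stalk, had 2549 CPM in skin cells, 5449 in lung, 4654 in liver and 3075 in the lymph node, so that both lung and liver lay above both other tissues, and lung was 1.77-fold (1.74 to 1.81) above lymph node. Rplp1 had 1774, 3051, 3215 and 2783 CPM, and Rplp2 had 2280, 3590, 3881 and 3312. For Rplp1 and Rplp2 skin alone was low, with lung only 1.10-fold and 1.08-fold above lymph node. A retrocopy of Rplp0, the processed pseudogene Gm8730, was counted apart and went the opposite way, with 1123, 507, 405 and 1046 CPM.

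Rpl5 and Rpl11, which join 5S ribosomal RNA in a particle that can bind Mdm2, followed the family. Rpl5 had 528 CPM in skin cells, 877 in lung, 875 in liver and 757 in the lymph node. Rpl11 had 2067, 2936, 3026 and 2674. Skin was lowest for both, 1.43-fold (1.35 to 1.52) below lymph node for Rpl5 and 1.29-fold (1.26 to 1.33) for Rpl11.

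In the small subunit, Rps24, a gene mutated in Diamond-Blackfan anemia, was among the lowest in skin relative to lymph node. It had 1974 CPM in skin cells, 3761 in lung, 4183 in liver and 3372 in the lymph node, 1.71-fold (1.66 to 1.76) lower in skin than in lymph node. Rps6, the protein that S6 kinases phosphorylate, was less displaced, with 2739, 3632, 3353 and 3395 CPM, and skin 1.24-fold (1.21 to 1.27) below lymph node. Rpsa, known also as the laminin receptor, had 1306, 2842, 2774 and 1845 CPM and was 2.18-fold (2.11 to 2.25) higher in lung than in skin. Rps27a, which is made as a fusion with ubiquitin, had 1873, 2759, 2901 and 2614. Rps12 and Rps21, proteins of the small subunit, differed in this: Rps12 had 751, 1586, 1644 and 1102 CPM, with lung and liver high, and Rps21 had 1041, 1450.2, 1751 and 1632, with skin alone low.

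Skin lay at least 1.5-fold below each of the other 3 tissues for 8 members, Rpl12, Rpl39, Rpl23, Rpl30, Rplp1, Rps15a, Rps15 and Rps24, against 5.99% of all genes. Both lung and liver lay above both skin and lymph node for 55 members (33 large, 22 small), against 11.9% of all genes. For 5 of them, Rpl7a, Rplp0, Rpl29, Rpl24 and Rpsa, the gap was at least 1.5-fold, against 2.81%. Rpl29 showed the widest gap, with 845 CPM in skin cells, 2032 in lung, 2108 in liver and 1143 in the lymph node. Rpl7a followed at 752, 1440, 1491 and 815. Rpl7a has 75 near-identical copies in the genome and Rpl29 has 59, so both levels depend on how the authors' counting shared out reads.

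Only 7 members showed the reverse, with both skin and lymph node above both lung and liver: Rpl35, Rpl15, Rpl6l, Rps27, Rps27rt, Rps28 and Rps29. Over all genes this order was common, at 46.4%. At least 1.5-fold in every such comparison were 5, Rpl35, Rpl15, Rpl6l, Rps27rt and Rps29, against 14.7%. Rpl35, which sits at the exit tunnel, had 3107 CPM in skin cells, 1394 in lung, 1032 in liver and 2976 in the lymph node. Rps29, a short zinc-binding protein of the small subunit, had 5055, 3015, 3292 and 7324. Rpl15, a core protein of the large subunit, had 1400, 728, 718 and 1434, nearly equal within each pair of tissues. Rps28 had 3273, 2091, 2479 and 3854.

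Of the S27 genes, Rps27 and Rps27rt split in the same manner. Rps27 had 8094 CPM in skin cells, 6588 in lung, 7400 in liver and 11831 in the lymph node, the highest value of any member in that tissue. Rps27rt had 3101, 879, 1108 and 3206, so that lymph node was 3.65-fold (3.54 to 3.75) above lung, while skin and lymph node differed by 1.03-fold. Rps27l did not share this order, with 197, 310, 284 and 211 CPM, and lung was 1.47-fold (1.37 to 1.59) above lymph node. The other paralogs were nearer the family: Rpl22l1, 66.9% identical to Rpl22 in coding sequence, had 593, 739, 693 and 778 CPM, and Rpl22, a gene needed in T cell development, had 618, 1056, 1083 and 837. Rpl36al, 87.9% identical to Rpl36a, had 620, 1111, 1093 and 796, and Rpl36a had 1084, 1351, 1318 and 1525. Rpl7l1 and Rps19bp1, the members with the fewest counts, had 32.2 to 69.1 and 29.5 to 50.3 CPM, both highest in lymph node.

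Copies of ribosomal protein genes bear on these values, because their counts differed between the same pairs of tissues. The table holds 12 -ps pseudogenes with a parent among the 84 genes, at 95.3 to 100% identity. They summed to 7749 CPM in skin cells, 2139 in lung, 2095 in liver and 7069 in the lymph node. All 12 were higher relative to their parent in skin than in lymph node, the median of the log2 difference being 0.44, and none was in lung (median -2.05) or liver (-2.03). The 23 copies named Gm or BC that match a member over most of its coding sequence summed to 6587, 1851, 1593 and 6000 CPM, with 19 of 23 higher relative to the parent in skin than in lymph node and none in lung or liver. With the copies of other ribosome genes added, 37 of the 38 copies were at least 1.5-fold higher in both skin and lymph node than in both lung and liver. The exception was BC004004, a copy of Rpl21.

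Single copies show the size of this split. Rpl23a-ps3, a processed pseudogene 99.8% identical to Rpl23a, had 2523 CPM in skin cells, 814 in lung, 769 in liver and 2410 in the lymph node, while Rpl23a had 3553, 4650, 4714 and 4359. Rpl10-ps3, identical to the coding sequence of Rpl10, had 640, 112, 90.2 and 555. Gm10076, identical to that of Rpl41, had 978, 106, 82.5 and 891. Rpl6l, a member by its symbol, is annotated as a processed pseudogene 98.7% identical to Rpl6 and had 823, 306, 276 and 802, whereas Rpl6 had 1812, 2512, 2450 and 2251. These copies were thus counted more often in skin and lymph node, while Rpl23a, Rpl41 and Rpl6 were lowest in skin. What part of the split of the 7 members comes from the way reads were shared among copies was not tested.

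Adding copies to their parents kept skin lowest but moved other values. With the -ps counts added, the sums were 191135 CPM in skin cells, 248660 in lung, 250299 in liver and 246244 in the lymph node, and with all copies added they were 197723, 250511, 251891 and 252245. With all copies lymph node had the highest sum, the ratio of large to small was 1.36 in skin and in liver, 1.37 in lung and 1.27 in lymph node, and 11 members in place of 7 were higher in both skin and lymph node. The number of copies in the genome followed the split poorly over the 83 members with an annotated coding sequence (Spearman -0.03, a description across genes that share libraries). Coding length followed it somewhat more (Spearman -0.27), but the medians did not fall steadily with length. The 11 members of up to 300 bases had a median log2 ratio of skin and lymph node to lung and liver of 0.08. Of these 11, 7 lay above 0. The 30 members over 300 and up to 450 bases had a median of -0.40, with 3 above 0. The 42 members over 450 bases had -0.37, with 3 above 0. Only the shortest members thus stood apart.

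Genes for ribosome proteins outside the symbol rule were read beside the members. Fau, made as a fusion with a ubiquitin-like protein, had 2889 CPM in skin cells, 4569 in lung, 5000 in liver and 3999 in the lymph node, as most members did. Rack1, a scaffold protein on the small subunit, had 466, 936, 986 and 620. Skin was lowest for both.

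Among 15 translation genes with TOP messengers, none was at least 1.5-fold higher in skin than in lung, against 30.1% of all genes, and 5 were lower, against 14.0%. Their median log2 ratio was -0.43, against 0.21 over all genes. Against lymph node the median was -0.19 in skin (-0.20 over all genes) and 0.34 in lung (-0.41). Eef1a1, the factor that brings tRNA to the ribosome, had 2792 CPM in skin cells, 4160 in lung, 4358 in liver and 3528 in the lymph node. Eef1b2, its exchange factor, had 263, 561, 533 and 407. Pabpc1, which binds poly(A) tails, was an exception, with 823, 669, 676 and 765.

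Of 49 ribosome biogenesis genes, 7 were at least 1.5-fold higher in skin than in lung, where 30.1% of all genes were, and 8 lower, where 14.0% were. Their median log2 ratio was 0.06, between that of the members (-0.56) and that of all genes (0.21). Nop56, a core protein of the particles that methylate ribosomal RNA, had 154 CPM in skin cells, 83.6 in lung, 85.6 in liver and 93.8 in the lymph node, and Ncl, nucleolin, had 423, 244, 258 and 347. Polr1d, a subunit of RNA polymerases I and III, went the other way with 201, 416, 382 and 270. Of 13 genes that control ribosome production, 8 were at least 1.5-fold higher and 1 lower in skin than in lung (30.1% and 14.0% of all genes), with a median of 0.71 against 0.21. Among them were Myc at 13.4, 5.95, 4.67 and 10.4 CPM and Mtor at 12.2, 5.57, 5.70 and 10.2, all low levels. The list also includes Tsc1 and Tsc2, which restrain mTOR signalling, so these numbers give no direction for ribosome production. Against lymph node the medians of skin were -0.37 for the biogenesis genes and -0.14 for the control genes, with -0.20 over all genes.

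The proteins of mitochondrial ribosomes and the initiation factors were read in the same way. Of 76 mitochondrial ribosome genes none was at least 1.5-fold higher and 21 were lower in skin than in lymph node (median -0.32), against 10.3% and 23.8% of all genes (median -0.20). Against lung 2 were higher and 23 lower (30.1% and 14.0% of all genes), with a median of -0.25 against 0.21. Of 50 initiation factors 9 were higher and 7 lower in skin than in lung (30.1% and 14.0% of all genes), with a median of -0.05 against 0.21. Against lymph node 17 of the 50 were higher in skin, where 64.1% of all genes were lower. At least 1.5-fold higher were 2 and lower 5 (10.3% and 23.8% of all genes), with a median of -0.17 against -0.20. Among those higher in skin were Eif1, which helps select the start codon, with 3927, 2317, 2321 and 2879 CPM, and Eif4a1, the helicase of the cap complex, with 697, 333, 380 and 407.

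The members were also compared between classes of cells of the same library, where the tissue and its preparation are shared. A cell was put in a class when it had counts of at least 2 genes of a list. The lists were Mki67, Top2a, Birc5, Ube2c and Cdk1 for cycling cells and, for central memory-type cells, 6 genes that include Tcf7, Lef1 and Ccr7. Cells are not replicates, so no test was made between classes.

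Cycling cells had less ribosomal protein messenger as a share of counts. The 84 genes summed to 123319 CPM in 51 cycling cells of skin and 188433 in the others, 236248 and 247469 in lung (96 cells), 210776 and 251843 in liver (23 cells), and 198683 and 240373 in lymph node (24 cells). In skin 80 of 84 were lower in cycling cells, against 44.2% of all genes there. The numbers were 52 in lung (56.3% of all genes), 65 in liver (50.8%) and 67 in lymph node (42.1%), so lung stood near its background. Lower in all 4 tissues were 49 members, against 17.0% of all genes. Cycling cells held more counts, with medians of 4907 against 2499 in skin and 7109 against 2869.5 in lung. At 1 depth of 1886 counts the median share was 11.7% in 33 cycling skin cells against 18.9% in the others, and 21.7% in 31 cells against 24.0% in lung. Without thinning these were 12.5% against 19.0% in skin and 24.3% against 24.1% in lung, so the lung difference had the opposite sign. The class was called again on the thinned counts, so depth and the cells in the class changed together and cannot be told apart. The T cell marker sum was lower in cycling cells too, at 9346 against 11977 CPM in skin and 8226 to 9667 against 9801 to 12265 in the other tissues. The sum of the myeloid markers was higher in cycling cells of skin (341 against 270 CPM), lung (362 against 283) and liver (357 against 267) and lower in lymph node (215 against 239). The part of either in the result was not tested.

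The S27 genes lay at the 2 ends of the family in cycling cells of every tissue. Rps27l had 478 CPM in cycling cells and 173 in the other cells of skin, 460 and 296 in lung, 456 and 267 in liver, and 638 and 198 in lymph node. It was 2.76-fold (2.25 to 3.37), 1.55-fold (1.38 to 1.75), 1.71-fold (1.33 to 2.17) and 3.22-fold (2.54 to 4.04) higher, the largest ratio of the 84 genes in each of the 4 tissues. Higher in cycling cells of all 4 tissues were only Rps27l and Rpl28, against 18.0% of all genes. Rps27 had 4185 CPM in cycling cells against 8422 in skin, 3913 against 6835 in lung, 3780 against 7752 in liver, and 6002 against 12004 in lymph node. It was 0.497, 0.572, 0.488 and 0.50 times the level of the other cells. Rps27rt, which shares its coding sequence with Rps27, was the lowest of the 84 in every tissue, at 0.475, 0.572, 0.442 and 0.443 times. Rps27 came next in skin, lung and liver and was rank 3 from the lowest in lymph node.

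The order was checked without doublets and at 1 depth. Without doublets called by Scrublet, Rps27l had the highest ratio and Rps27rt the lowest in all 4 tissues. With all cells thinned to 1886 counts, Rps27l was highest in skin and lung, rank 83 of 84 in lymph node and rank 82 in liver, and rested on 29, 25, 10 and 11 counts. Rps27rt was then lowest in skin and lymph node, rank 2 in lung on 30 counts and rank 3 in liver on 13. The thinned log2 ratios of Rps27l were 1.46, 0.60, 1.38 and 0.84, and those of Rps27 -1.07, -0.83, -1.35 and -1.36 in the same order. Rps2, Rpsa and Rplp0 were also higher in cycling cells of lung, liver and lymph node and lower in those of skin. For Rps2 the values were 3735 against 2451 CPM in lung, 2709 against 2151 in liver, 2305 against 1648 in lymph node, and 1007 against 1558 in skin. The positions of these genes were read after their values were seen.

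**Figure D3:**
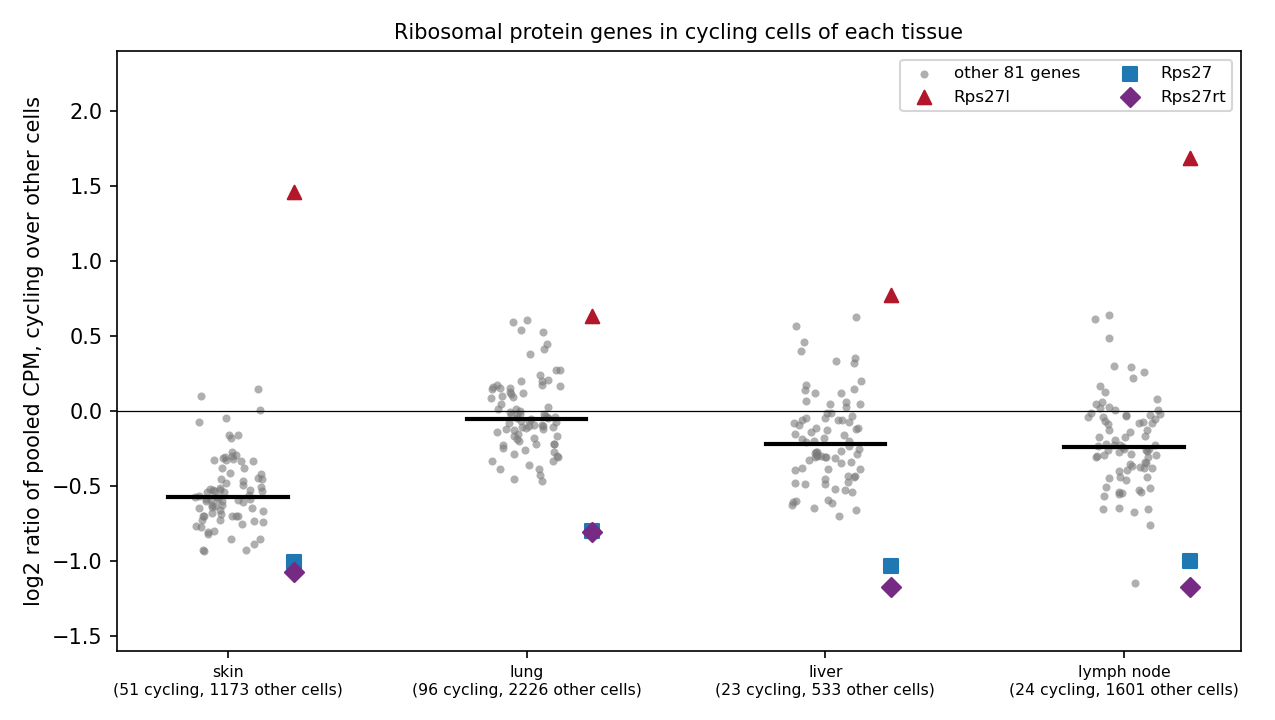
Log2 ratio of pooled CPM in cycling cells over the other cells of the same tissue, for each of the 84 genes, with the S27 genes marked and the median as a thick line. Rps27l is the highest point and Rps27rt the lowest in all 4 tissues, with Rps27 near Rps27rt.

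Central memory-type cells had a larger share. In lymph node the 84 genes summed to 278280 CPM in 229 such cells and 232439 in the others, and 81 of 84 were higher, against 42.6% of all genes. The depth was alike, with medians of 2642 and 2650.5 counts. The T cell marker sum was 10536 against 12475 CPM and the B cell marker sum 78.1 against 33.1, and their part in the result was not tested. At 1886 counts the median share was 26.0% in 135 cells and 23.3% in the others. In the other tissues the class was small: 64 members were higher in 27 cells of skin (65.2% of all genes), 67 in 54 cells of lung (59.0%) and 74 in 26 cells of liver (56.0%), so skin stood not far above its background. Higher in all 4 tissues were 46 members, against 8.16% of all genes, and none was lower in all 4 (6.84% of all genes). Rps27 in the class had 14599 CPM against 11354 in lymph node, 9058 against 7324 in liver, 6884 against 6579 in lung and 7697 against 8104 in skin. Rps27l was the lowest of the 84 in lymph node, at 177 against 216 CPM (0.818 times, 0.669 to 0.993), and in lung, at 257 against 312 CPM (0.825 times, 0.626 to 1.07), but the highest in skin, at 369 against 192 CPM.

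Other classes moved the family less or held few cells. In lung 64 cells with at least 2 counted genes of the amino acid response (Ddit3, Trib3, Asns, Atf5, Sesn2) had 291230 CPM of the 84 genes against 245517, with 73 members higher against 65.2% of all genes, but they were shallow, with a median of 1983 counts against 2960. At 1886 counts only 20 cells still had counts of at least 2 of the listed genes, with a median share of 34.4% against 23.9%. These 20 are thus not the same class at equal depth. In lymph node 405 cells of the interferon class had 229474 CPM against 242742, and 80 members were lower, where 55.9% of all genes were, with a median log2 ratio of -0.08. In skin 987 of 1224 cells fell in the immediate early class (Nr4a1, Fos, Fosb, Egr1, Atf3), with 181969 against 189860 CPM and 76 members lower against 52.7% of all genes. The 189860 CPM of the skin cells outside that class lay below the sums of the other 3 tissues. Those cells only had counts of fewer than 2 of the listed genes. The part of this class in the lower sum of skin was not tested.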

How the data were processed

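Counts of 9223 genes in 5727 cells were deposited as whole numbers in a single table. Per the submitters' processing notes it was made with Bowtie and RSEM on mm10, and no source used here gives versions, filters or the use of molecular identifiers. Counts were pooled per tissue and divided by the total (CPM), with exact Poisson ratio and Clopper-Pearson intervals at 95%. Differences of at least 1.5-fold were counted, among genes with at least 20 counts in a pair, since 1 library per tissue allows no test. For a ratio, a count of 0 was set to 3. Ratios were tested on simulated data. Copies of members were found with blastn 2.17.0 in GENCODE M21 transcripts (at least 90% identity over 80% of the coding sequence). Scrublet (scanpy 1.11.5, expected rate 0.05) called 62 doublets (1.08%), kept except in an alternative. Thinning to 1886 counts removed the shallower cells, 141 of skin, 273 of lung, 27 of liver and 131 of the node. Classes were called again on the thinned counts, so they hold fewer cells than the unthinned classes.

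Named were the 10 members with the highest mean CPM, the 4 highest and 4 lowest per pair, paralogs, stalk and 5S particle proteins, Rps6, Rpsa, Rps27a, parents of pseudogenes and list genes, and those singled out within classes were chosen after their values were seen. The members and lists were chosen with earlier results of these data known. Python 3.11.15, numpy 2.4.6, pandas 2.3.3 and scipy 1.17.1 were used. Alternatives were size factors, count minimums, thresholds, copies added, doublets, cycling cells and the largest members left out. Some genes that the rule or the lists name are not reported here.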

Additional observations from a re-analysis of the deposited data

How the results depend on the processing

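No paired analysis was possible because each tissue is 1 library and the table carries no sample numbers, and for the same reason no replicate could be left out. Intervals cover counting error only and are narrow at this depth, so most alternatives move a sum beyond them. In the order skin, lung, liver and lymph node, the summed CPM was 177991, 243094, 244673 and 233264 with the cytosolic ribosome alone, 191135, 248660, 250299 and 246244 with -ps pseudogenes added to their parents, 197723, 250511, 251891 and 252245 with all copies added, 186977, 245791, 247361 and 235306 as the mean of per-cell shares, 189967, 246950, 251142 and 240872 without cells with a cycling gene, 153889, 212277, 212396 and 200144 without the 5 highest members, 186414, 251223, 253252 and 243328 without mitochondrial genes, and 179884, 263099, 268081 and 211527 with size factors. Skin was lowest under each.

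The ratio of large to small subunit genes, in the same order, was 1.32, 1.36, 1.35 and 1.247 with -ps pseudogenes added, 1.36, 1.37, 1.36 and 1.27 with all copies added, 1.27, 1.33, 1.33 and 1.20 as the mean of per-cell shares, 1.12, 1.16, 1.16 and 1.08 without the 5 highest members, and 1.60, 1.51, 1.53 and 1.54 without the 7 members higher in skin and lymph node. With the cytosolic ribosome alone it was 1.30 in skin, 1.35 in lung and 1.23 in lymph node, and without cells with a cycling gene 1.21 in lymph node.

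With size factors the median log2 ratio to lymph node was -0.24 in skin, 0.40 in lung and 0.45 in liver, and that of skin was -0.68 to lung and -0.68 to liver. Without cells with a cycling gene it was -0.35 for skin over lymph node. Past 1.5-fold under size factors were 4 members for skin against lymph node, where the share of all genes was not computed under this setting. For lung they were 28, with 22 higher (11.9% of all genes) and 6 lower (24.3%). For liver they were 30, with 24 higher (13.4%) and 6 lower (26.9%). At 5/4-fold the numbers against lymph node were 57, 32 and 30 (57.8%, 67.2% and 70.5% of all genes), with 67 for skin against liver (65.1%) and 3 for lung against liver (39.2%). At 2-fold they were 1, 4 and 4 (15.9%, 21.9% and 26.0% of all genes), with 8 for skin against lung (22.1%) and 12 for skin against liver (21.5%). With all copies added, and Rpl6l and Rps27rt merged into Rpl6 and Rps27, 11 members were higher in both skin and lymph node than in both lung and liver. Over all genes, without copies added, 46.4% had this order. The all-copies and 7-member alternatives were chosen after seeing the data.

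For single genes in skin over lymph node the sign turned with the share of summed member counts for Rps27rt (0.34), Rps27l (0.28), Rpl15 (0.35), Rps28 (0.15), Rplp0 (0.11), Rpl7a (0.27) and Rpl24 (0.15), and with size factors for Rps27rt (0.10), Rps27l (0.051), Rpl15 (0.11) and Rpl7a (0.033). Without thinning, the difference in per-cell share between class and other cells, in points, turned sign for the immediate early class in liver (0.21), lung (0.10) and lymph node (-0.83), for cycling cells of lung (0.22) and for the interferon class of lung (0.28). It was -6.50 for cycling cells of skin, 5.74 for the amino acid response in lung, 1.59 and 3.02 for central memory-type cells of lung and lymph node, -0.46, -0.80 and -1.10 for the interferon class of liver, lymph node and skin, and -0.90 for the immediate early class of skin.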
